A study of Mus musculus with 6 samples.

Results

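Interferon-gamma signalling is described here by 6 genes chosen by symbol from the 32285 genes of the matrix: the ligand Ifng, the receptor chains Ifngr1 and Ifngr2, and the early targets Irf1, Socs1 and Irf8. Every one of the 6 was found in the matrix, with no filter on low values. The tumors were grown from MOC-2, a mouse head and neck squamous carcinoma line, from 100000 cells placed under the skin of male mice. They were taken 24 hours after an injection into the tumor. The 3 vehicle tumors received vehicle, with DMSO named in their descriptions, and the 3 treated tumors an experimental agent that their labels do not specify. The shared treatment protocol lists copper(II) diethyldithiocarbamate, 2-C1-IB-MECA, a cyclic dinucleotide written 2'3'-c-di-AM(PS)2, 5’ppp-dsRNA/Lyovec, R848, galunisertib, epcadostat, Nw-Hydroxy-nor-L-arginine, L-NMMA, clodronate and 4-1BB ligand. It does not say which of them the treated tumors received. Live cells were sorted, tagged per tumor and pooled for droplet 3' RNA sequencing.

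Cells in the matrix carry a barcode suffix from 1 to 6, and the cells of 1 suffix are called a barcode set. No label ties a set or a tag to a tumor. The pool was therefore described as 1 sample without replicates, no treated cell was compared with a vehicle cell, and no p-value was computed. The 6 sets held 901 to 4077 cells and 7354560 to 38798439 gene UMIs (unique molecular identifiers, the counted molecules), and shared 0 barcode sequences. Set 1 stood apart with 35 T and NK cells among its 2886 kept cells, none of them in the CD8 T gate, and set 3 had 0 osteoclast-like cells and 78 keratin-low carcinoma cells. Of 14818 cells, 13728 were kept, and marker genes placed 11065 of them in 22 lineages, of which 19 held at least 20 cells and were ranked. T cells were split by UMIs of Cd8a or Cd8b1, Cd4, Foxp3, and Trdc or Tcrg-C1; those with none of these, or with both Cd4 and Cd8, are called unsplit T cells (other T in the plots), and their median depth of 1566 UMIs was under the 2847 of CD8 T cells. The 326 mixed cells passed several gates, or passed a gate and held at least 3 Xist UMIs. They and the 2337 cells that passed none (ungated) were not ranked. The labelled cell type, HNSCC, was checked by Xist, since the hosts are male, and by keratins. The 7916 carcinoma cells held 1308 CPM (counts scaled to a total of 1000000) of Xist, which their gate requires, and 2.08 CPM of the leukocyte gene Ptprc, against 1465 CPM of Ptprc in the 661 T and NK cells. Only 1534 of them were keratin-positive, so 6382 rest on Xist without Y-linked UMIs alone. Levels are CPM of the summed counts of a lineage with exact 95% Poisson intervals in parentheses, and shares carry exact 95% binomial intervals. They describe counting error alone and say nothing of how tumors vary.

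Interferon-gamma is a cytokine made mainly by activated NK cells and T cells. It binds a receptor of IFNGR1, the ligand-binding chain, and IFNGR2, the chain that brings JAK2 and is needed for signalling, and the receptor signals through the kinases JAK1 and JAK2 to genes that carry gamma-activated sites (GAS). Among the early targets, Irf1 and Irf8 encode transcription factors, and Socs1 encodes an inhibitor that shuts the kinases off again. Irf8 is also needed for the development of dendritic cells and is expressed without interferon in several blood lineages. In tumors the cytokine is known for raising antigen presentation and PD-L1, and T cells are known to lower their IFNGR2 chain.

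The promoters of the 3 targets are shown because they carry the letters through which the pathway is known to reach these genes. Each is the 250 bases before the first listed start of the gene in the RefSeq promoter table (GRCm38.p6), 5′ to 3′ in the direction of the gene, and capitals mark motif matches. They lie at chr11:53769764-53770013 on the plus strand (Irf1), chr16:10785537-10785786 on the minus strand (Socs1) and chr8:120736108-120736357 on the plus strand (Irf8).
Irf1: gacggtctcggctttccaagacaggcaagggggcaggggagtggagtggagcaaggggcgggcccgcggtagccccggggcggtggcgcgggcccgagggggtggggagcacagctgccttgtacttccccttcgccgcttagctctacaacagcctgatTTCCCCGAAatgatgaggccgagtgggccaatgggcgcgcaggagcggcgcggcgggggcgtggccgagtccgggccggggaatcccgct
Socs1: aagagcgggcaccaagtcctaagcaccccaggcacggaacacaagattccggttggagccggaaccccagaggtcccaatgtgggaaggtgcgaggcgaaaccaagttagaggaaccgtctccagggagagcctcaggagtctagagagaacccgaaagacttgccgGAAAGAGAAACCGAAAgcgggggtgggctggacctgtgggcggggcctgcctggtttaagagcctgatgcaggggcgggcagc
Irf8: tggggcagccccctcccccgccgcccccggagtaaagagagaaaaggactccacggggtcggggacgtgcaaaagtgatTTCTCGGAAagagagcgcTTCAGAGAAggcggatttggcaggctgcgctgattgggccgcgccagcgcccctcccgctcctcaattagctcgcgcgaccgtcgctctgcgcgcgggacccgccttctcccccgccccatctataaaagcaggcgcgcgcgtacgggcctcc
The motifs searched on both strands were the GAS core TTCNNNGAA and the IRF-type core GAAANNGAAA. Irf1 had 1 GAS match, TTCCCCGAA, from 90 to 82 bases before the start. Irf8 had 2, TTCTCGGAA from 171 to 163 and TTCAGAGAA from 153 to 145. Socs1 had no GAS match in its window. It had 2 IRF-type matches that share 4 bases, GAAAGAGAAA from 83 to 74 and GAAACCGAAA from 77 to 68, and no base of any window lay in both motifs. All 6 members were in the table, with 8 start sites. The single start of Ifng had 1 GAS match, from 249 to 241, and neither motif was found before the listed starts of Ifngr1 and Ifngr2 or the second starts of Irf1 and Irf8. Among all 32851 promoter windows of the same length, 7.02% held a GAS core and 2.98% an IRF-type core. A match describes letters and does not show binding.

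Ifng (ENSMUSG00000055170, chromosome 10, 118441046 to 118445892, plus strand, mm10) was found in lymphocytes. In kept cells it had 661 UMIs in 274 cells. CD8 T cells held 286 CPM (241 to 338), cells passing both the T and the NK gate 281 CPM (226 to 345), NK cells 191 CPM (159 to 228) and unsplit T cells 186 CPM (143 to 238). Gamma-delta T cells, of which there were 27, followed at 177 CPM (88.6 to 318), from 11 UMIs in 4 cells, 7 of the UMIs in 1 cell. Neighbours in this order have overlapping intervals. The next lineage, CD4 conventional T cells, stood apart from them at 17.4 CPM (3.59 to 50.9, from 3 UMIs), 16.5-fold under CD8 T cells (5.52 to 80.7). Regulatory T cells had 0 UMIs in 35 cells, which allows up to 43.1 CPM.

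Lymphocyte gates held 435 of the 469 Ifng UMIs of gated cells, 92.8% (90.0 to 94.9%). CD8 T cells held 30.3% of the gated UMIs (26.1 to 34.7%) and NK cells 26.7% (22.7 to 30.9%). These intervals overlap, and the order turned without set 5 (23.6% and 31.0%) and with an NK gate of 2 markers, chosen after seeing the data (24.8% and 35.3%). Macrophages and monocytic cells together had 2 UMIs in 1780 cells, and type 2 dendritic cells, neutrophils, mast cells or basophils, osteoclast-like, endothelial and pericyte or smooth muscle cells had 0. The carcinoma cells had 30 UMIs in 19 of 7916 cells, 0.293 CPM, and 10 of these 19 cells, with 21 of the UMIs, also held a T or NK marker or Ptprc. Thinned to 2000 UMIs per cell, with shallower cells left out, 24.7% of 384 T and NK cells had an Ifng UMI (20.5 to 29.4%) against 0.08% of 7748 carcinoma cells (0.03 to 0.17%). Without thinning the shares were 26.5% and 0.24%, at median depths of 2307 and 11273 UMIs. Outside the ranked lineages, 28 mixed cells held 66 UMIs, and all 28 also passed the T or the NK gate. The ungated cells held 126 UMIs in 48 cells, of which 47 had a T or NK marker or Ptprc. Ifng overlaps the annotated gene Gm49751, and reads of the overlap may be split between them.

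Few cells carried much of the transcript. The 10 cells with the most Ifng held 18.6% of the 661 UMIs and the 50 cells with the most held 49.3%. Of 175 T and NK cells with the transcript, 84 had a single UMI and 21 had at least 5. The highest count in 1 cell was 18, in the CD8 T gate, while no NK cell had more than 8.

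Ifng in T and NK cells spanned a wider range over the barcode sets than Ifngr1 did. In all T and NK cells it stood at 45.6, 67.4, 283, 210, 223 and 312 CPM in sets 1 to 6. Sets 1 and 2 were the low ones, and their intervals (14.8 to 106 and 47.0 to 93.8 CPM) do not reach those of the other 4 sets. NK cells held 51.4, 43.6, 325, 155, 81.0 and 510 CPM, from 14 to 44 cells a set. CD8 T cells, absent from set 1, held 130, 252, 238, 407 and 357 CPM in sets 2 to 6. The order of both subsets was not the same in every set: NK cells were above CD8 T cells in sets 3 and 6 and below them in sets 2, 4 and 5, with intervals that do not overlap in set 5 alone. Set 6 alone held 69 of the 125 NK UMIs, and without it NK cells stood at 108 CPM and held 17.6% of the gated UMIs. The sets differ in cell number and depth, and their part in these values was not tested.

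**Figure D1:**
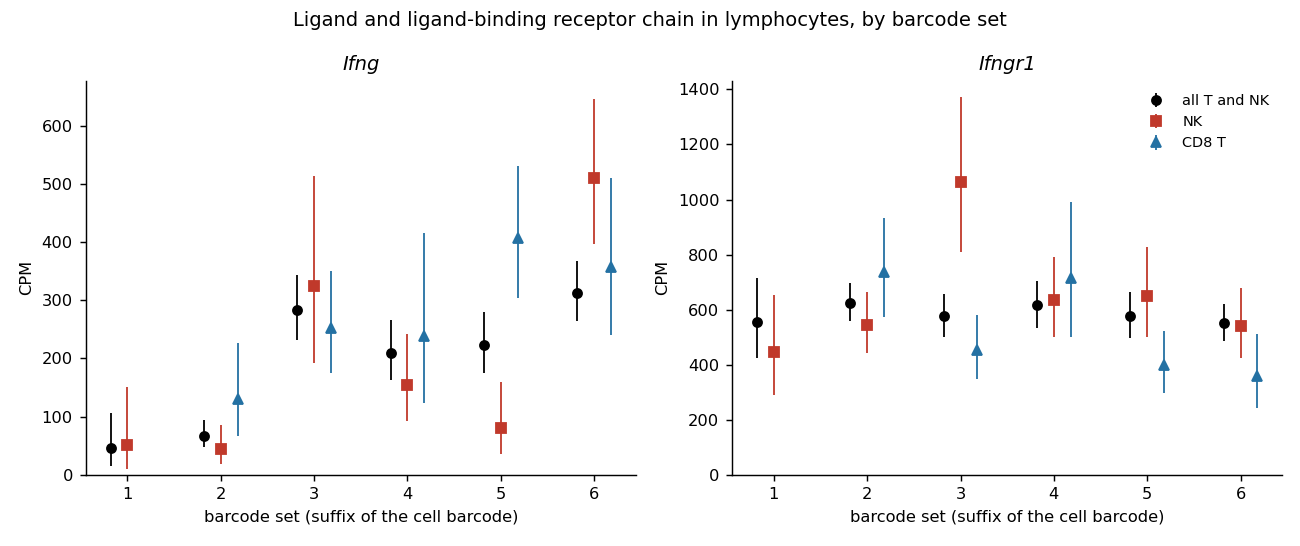
Levels of Ifng (left) and Ifngr1 (right) in CPM for each barcode set, in all T and NK cells, NK cells and CD8 T cells, with exact 95% Poisson bars (counting error only). Ifng in all T and NK cells runs from 45.6 to 312 CPM, while Ifngr1 in the same cells stays between 550.2 and 624 CPM. Set 1 has no CD8 T cells.

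Genes with a pattern most like that of Ifng across the 19 lineages were Fasl, the death ligand of killer lymphocytes (Pearson r = 0.98 of log2(CPM + 5)), the NK receptor genes Klrc1 (0.97) and Klrc2 (0.96), Ctsw, a protease of killer cells (0.96), and Cd160 (0.96). These points come from 1 pool and are a description. The regulators of Ifng producers are a list that includes Tbx21, Eomes and the interleukin-12 and interleukin-18 receptors. Of 13 counted genes, 11 were at least 2-fold higher in NK cells than in all other kept cells, where 9.97% of 14472 genes were. In CD8 T cells 10 of 13 were, where 11.0% of all genes were. The list was also high in T cells with little or no Ifng. In CD4 conventional T cells 9 of 13 were, where 1314 of the 14472 genes were, and in regulatory T cells 6 of 13, where 9.52% were. Eomes is itself an NK gate marker. The interleukin-2 receptor chain Il2rb stood at 1517 CPM in NK cells and 1031 CPM in CD8 T cells, Id2 at 1500.1 and 1305 CPM, and the T and NK transcription factor Runx3 at 518 and 351 CPM.

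Among cytokines that induce Ifng, Il12b, a subunit of interleukin-12, stood at 315 CPM (218 to 441) in mature dendritic cells, against 0.493 CPM in all other kept cells. Il15, which sustains NK cells, stood there at 46.4 CPM from 5 UMIs. Il12a, the other interleukin-12 gene of the list, was not among the 6 counted genes. Il12b and Il15, 2 of those 6, were at least 2-fold higher in mature dendritic cells, where 7.21% of all genes were. In C1q-positive macrophages 4 of 6 were, against 12.4% of all genes: Ebi3 at 23.6 CPM and Il27 at 4.17 CPM, which form interleukin-27 together, Il18 at 24.4 CPM and Il15 at 15.8 CPM. Il23a was at least 2-fold lower there. The same 4 genes were at least 2-fold higher in C1q-negative monocytic cells, against 12.1% of all genes. Neutrophils also had 4 of 6, against 8.34%: Il18, Il15, Il23a and Ebi3.

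Ifngr1 (ENSMUSG00000020009, chromosome 10, 19591949 to 19610229, plus strand) was highest in lymphocytes. Unsplit T cells held 744 CPM (655 to 842), regulatory T cells 665 CPM (504 to 862), NK cells 612 CPM (553 to 675), T and NK positive cells 587 CPM (506 to 676), CD8 T cells 502 CPM (442 to 569), gamma-delta T cells 500.1 CPM (340 to 710) and CD4 conventional T cells 424 CPM (332 to 533). Each overlaps the next in this order. Type 2 dendritic cells followed at 166 CPM (95.1 to 270.3), and C1q-negative monocytic cells and C1q-positive macrophages both stood at 145 CPM. NK cells were 4.22-fold above C1q-positive macrophages (3.69 to 4.83) and 16.3-fold above carcinoma cells (14.7 to 18.1), which held 37.5 CPM. The lowest were mast cells or basophils at 22.1 CPM (6.01 to 56.5) and osteoclast-like cells at 20.4 CPM (14.0 to 28.6), the latter 7.12-fold under C1q-positive macrophages (5.00 to 10.5). Thinned to 2000 UMIs, 62.5% of T and NK cells had an Ifngr1 UMI (57.4 to 67.4%), against 23.4% of C1q-positive macrophages (20.3 to 26.8%) and 8.43% of carcinoma cells (7.82 to 9.07%). Across sets the level in all T and NK cells was 556, 624, 575, 615, 577 and 550.2 CPM, and every interval overlaps the others. Within NK cells it ran from 445 CPM in set 1 to 1065 CPM in set 3, the latter from 59 UMIs in 17 cells.

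Ifngr2 (ENSMUSG00000022965, chromosome 16, 91547072 to 91565623, plus strand) was lowest in most of the lymphocytes. The 661 T and NK cells held 9 UMIs in all, 4.22 CPM (1.93 to 8.01). With an NK or a macrophage gate of 2 markers, both chosen after seeing the data, this was 7.09 or 2.72 CPM. CD8 T cells, unsplit T cells and T and NK positive cells had 0, which allows up to 7.44, 10.9 and 11.4 CPM, and NK cells had 3. The gamma-delta gate had 3 of the 9 UMIs in 27 cells, 48.4 CPM (9.98 to 141). Highest were type 2 dendritic cells at 146 CPM (79.6 to 244), pericytes or smooth muscle cells at 123 CPM (90.3 to 163), C1q-positive macrophages at 119 CPM (107 to 131) and C1q-negative monocytic cells at 111 CPM (94.8 to 128). These 4 do not differ beyond their intervals. Osteoclast-like cells followed at 88.2 CPM (74.4 to 104), endothelial cells at 74.3 CPM (47.6 to 111) and fibroblasts at 61.2 CPM (49.8 to 74.5). Keratin-low carcinoma cells held 40.05 CPM (38.7 to 41.5) and keratin-positive ones 27.7 CPM (25.6 to 29.8).

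C1q-positive macrophages held 28.1-fold the Ifngr2 level of T and NK cells (14.7 to 61.9), and carcinoma cells 8.78-fold (4.62 to 19.2). After thinning, 1 of 384 T and NK cells, 0.26% (0.01 to 1.44%), had an Ifngr2 UMI, against 21.5% of C1q-positive macrophages (18.5 to 24.8%) and 6.96% of carcinoma cells (6.40 to 7.55%). The order of the macrophage and lymphocyte levels was the same in all 6 sets: macrophages and monocytic cells together ran from 90.8 to 131 CPM with a median of 125 CPM, and T and NK cells from 0 to 27.3 CPM with a median of 3.43 CPM, so the ranges do not overlap. The 27.3 CPM came from 3 UMIs in the 35 cells of set 1. The CD8 T gate and the unsplit T cells had 0 in every set where they had cells. Across the 19 lineages Ifngr1 and Ifngr2 ran in opposite directions (Pearson r = -0.65), and so did Ifng and Ifngr2 (r = -0.79). Both values include the lymphocytes, and r without them was not computed. Among the other lineages, type 2 dendritic cells were high in Ifngr1 and Ifngr2 (166 and 146 CPM) and keratin-positive carcinoma cells low in both (33.5 and 27.7 CPM). Osteoclast-like cells (20.4 and 88.2 CPM) and pericytes or smooth muscle cells (44.5 and 123 CPM) were high in Ifngr2 alone.

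**Figure D2:**
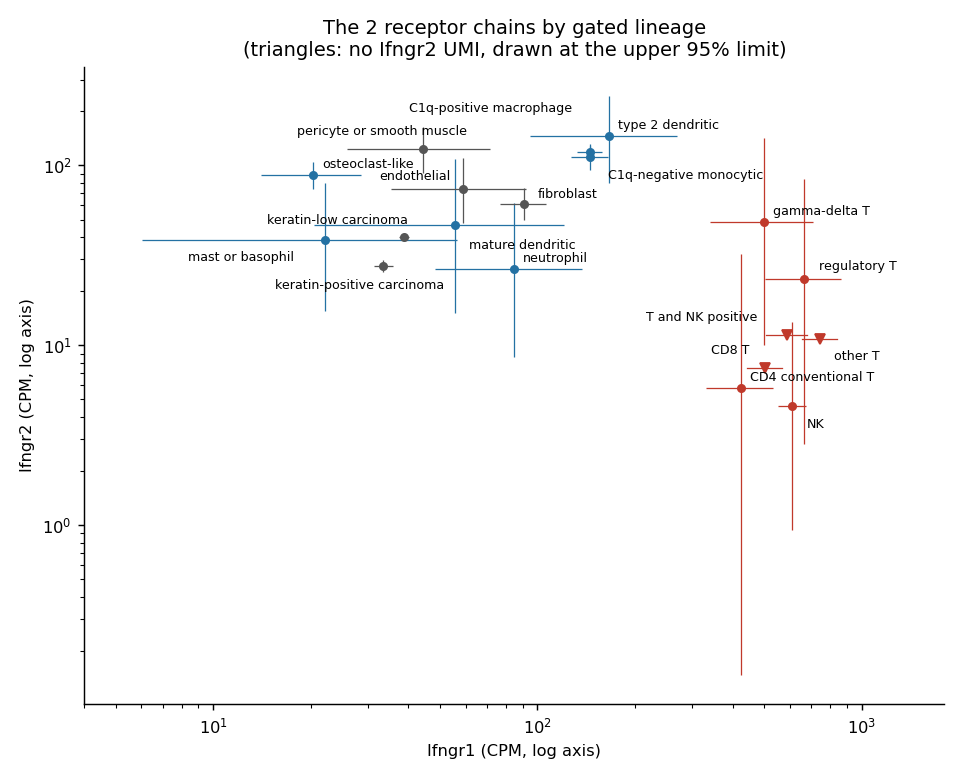
Ifngr1 on the horizontal and Ifngr2 on the vertical axis, both in CPM on log axes, 1 point per gated lineage with exact 95% Poisson bars; red marks lymphocytes, blue myeloid cells and grey other cells, and triangles mark lineages with 0 Ifngr2 UMIs at their upper limit. The 7 lymphocyte lineages lie to the right, at 424 to 744 CPM of Ifngr1, and 5 of them lie under 12 CPM of Ifngr2 or its limit.

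Osteoclast-like cells were the reverse of the lymphocytes among the blood-derived lineages. They had the lowest ranked Ifngr1 level, within the interval of mast cells or basophils, and an Ifngr2 level 2.20-fold that of keratin-low carcinoma cells (1.85 to 2.61). Their Ifngr1 level was 24.7-fold under that of CD8 T cells (17.1 to 36.6). The genes closest to Ifngr2 across lineages were Ly96, a partner of the endotoxin receptor (r = 0.85), Ltbr, the lymphotoxin receptor (0.84), Fam129b (0.83), Creb5 (0.82) and Acap2 (0.81). Closest to Ifngr1 were Shisa5 (0.95), the costimulatory receptor Cd28 (0.94), D16Ertd472e (0.93), the antiviral gene Zc3hav1 (0.93) and the integrin gene Itgal (0.92).

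Past the receptor, 4 of 10 counted genes of proximal signalling were at least 2-fold higher in NK cells, against the 9.97% of all genes given above, and 4 of 10 in CD8 T cells, against 11.0%. Stat3 stood at 561 and 623 CPM in these subsets, the receptor kinase Jak1 at 364 and 282 CPM, the cytokine-induced inhibitor Cish at 65.8 and 141 CPM, and the phosphatase gene Ptpn6 at 29.1 and 26.2 CPM. In mature dendritic cells 4 of 10 did, against 7.21% of all genes: Stat3 (769.6 CPM), Jak2 (343 CPM), Ptpn1 (241 CPM) and Cish (111 CPM). C1q-positive macrophages had 4 of 10 as well, against 12.4%: Socs3 (225 CPM), Ptpn1 (164 CPM), Ptpn6 (98.7 CPM) and Cish (52.5 CPM). Type 2 dendritic cells had 7 of 10, against 1014 of 14472 genes. C1q-negative monocytic cells had 6 of 10, against 12.1%, and unsplit T cells 6 of 10, against 1710 genes. Regulatory, CD4 conventional and gamma-delta T cells had 5 of 10 each, against 1378, 1314 and 1071 genes. Among these lineages, Ptpn11 was at least 2-fold lower in NK and mature dendritic cells, where 2884 and 1286 genes were. Socs3 was so in CD8, regulatory and CD4 conventional T cells, where 2397, 771 and 1248 were. No gene of this list was 2-fold higher in keratin-low carcinoma cells, a count near the 1.31% of all genes.

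**Figure D3:**
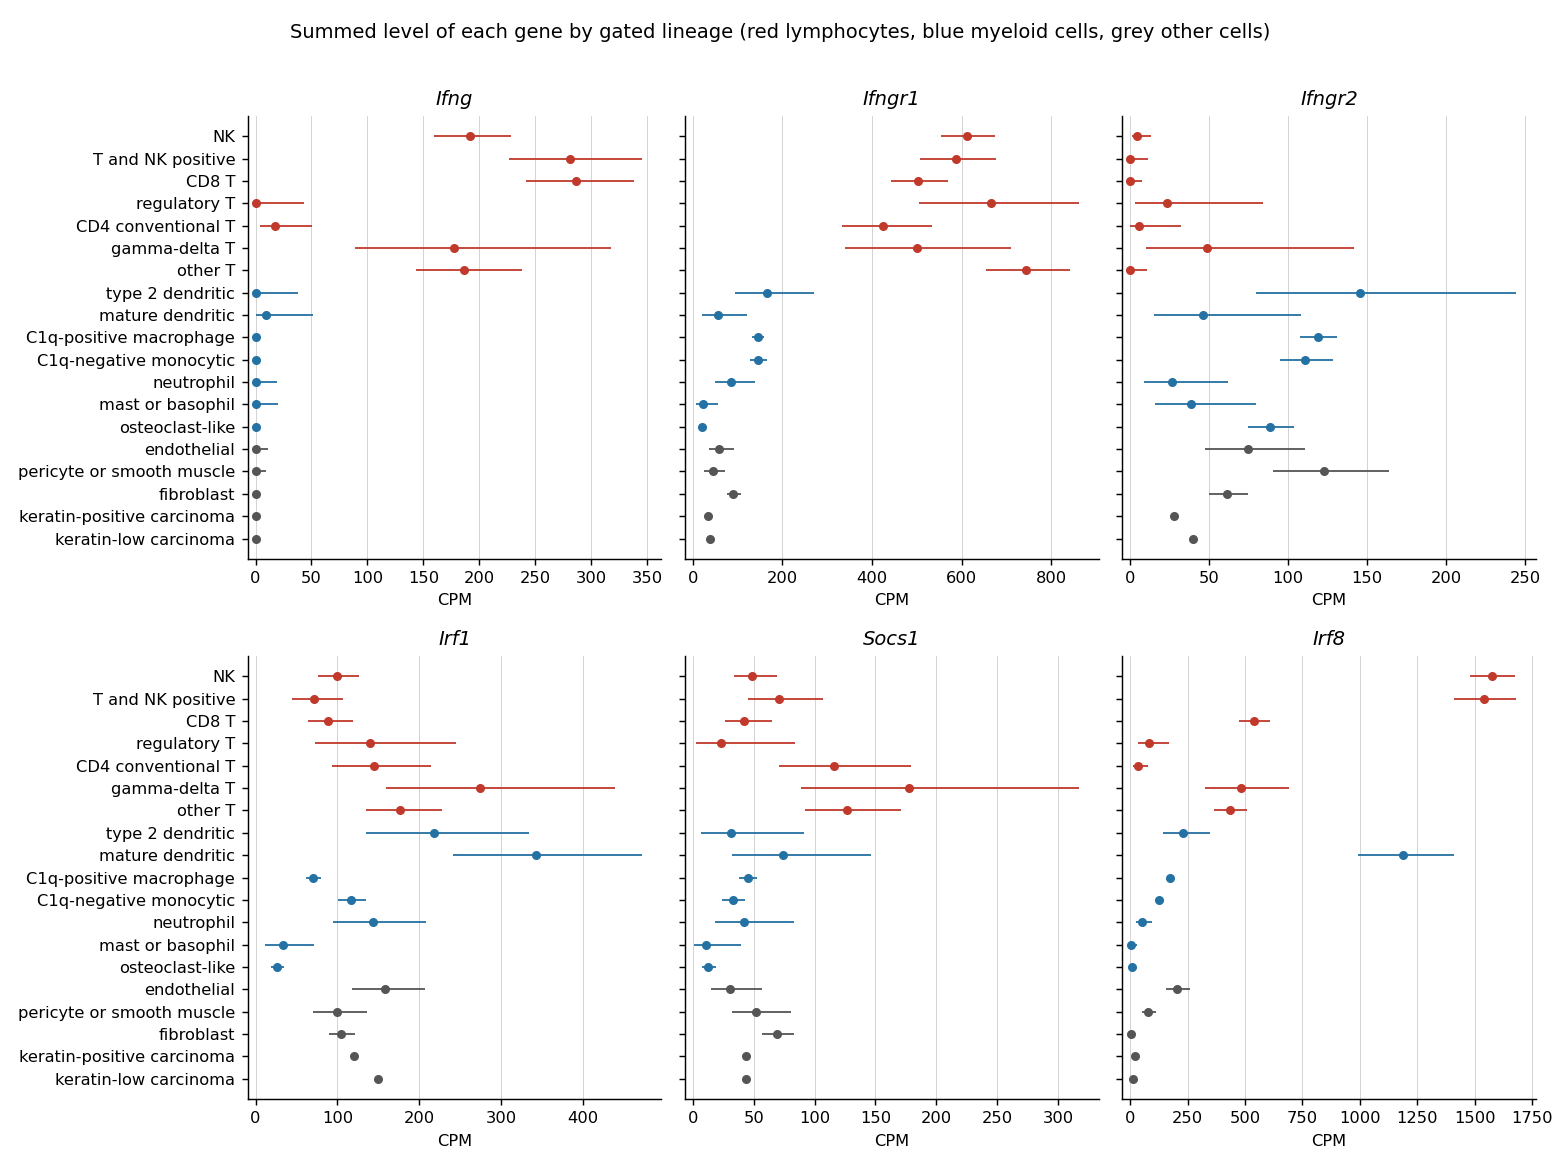
Levels of the 6 genes in CPM (horizontal axes, a separate scale for each gene) in the 19 ranked lineages, with exact 95% Poisson bars; red marks lymphocytes, blue myeloid cells and grey other cells. Ifng and Ifngr1 are high in lymphocytes, Ifngr2 is at or near 0 in most of them, and Irf8 peaks in NK cells at 1577 CPM.

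Irf1 (ENSMUSG00000018899, chromosome 11, 53770014 to 53778374, plus strand), whose promoter holds the GAS match shown above, was found in every ranked lineage. Mature dendritic cells held 343 CPM (242 to 473), gamma-delta T cells 274 CPM (160 to 439), type 2 dendritic cells 218 CPM (135 to 334), unsplit T cells 177 CPM (135 to 228) and endothelial cells 158 CPM (118 to 208). Keratin-low carcinoma cells held 150 CPM (147 to 152) and keratin-positive ones 121 CPM (116 to 125). NK cells and CD8 T cells, the main sources of the ligand, stood at 99.4 CPM (76.7 to 127) and 88.7 CPM (64.5 to 119). C1q-positive macrophages were lower, at 70.4 CPM (61.7 to 79.9), so keratin-low carcinoma cells were 2.12-fold above them (1.87 to 2.43) and mature dendritic cells 4.88-fold (3.35 to 6.92). These are folds of the pool. By set, C1q-positive macrophages ran from 47.0 to 122 CPM with a median of 91.0 CPM. The lowest were mast cells or basophils at 33.1 CPM (12.1 to 72.1) and osteoclast-like cells at 25.9 CPM (18.7 to 35.0). Neighbours in the order of all 19 lineages have overlapping intervals. Irf1 overlaps the annotated gene Gm17334, and reads of the overlap cannot be assigned here.

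By set, Irf1 in keratin-low carcinoma cells was 97.6, 160, 132, 161, 170 and 182 CPM, and set 1 was the low one. Keratin-positive carcinoma cells held 63.0, 127, 190, 89.1, 149 and 158 CPM, with sets 1 and 4 low. Macrophages and monocytic cells together held 56.2, 169.8, 191, 52.9, 68.5 and 143 CPM, with sets 1, 4 and 5 low and sets 2, 3 and 6 high. Their order against keratin-low carcinoma cells turned: they were above them in sets 2 and 3 and under them in sets 1, 4, 5 and 6. All T and NK cells held 36.5, 84.8, 110.1, 102, 107 and 187 CPM, from 35 cells in set 1 to 161 in set 6. Set 1 was thus the lowest in 3 of these 4 groups of cells and the lowest but 1 in the macrophage and monocytic group.

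**Figure D4:**
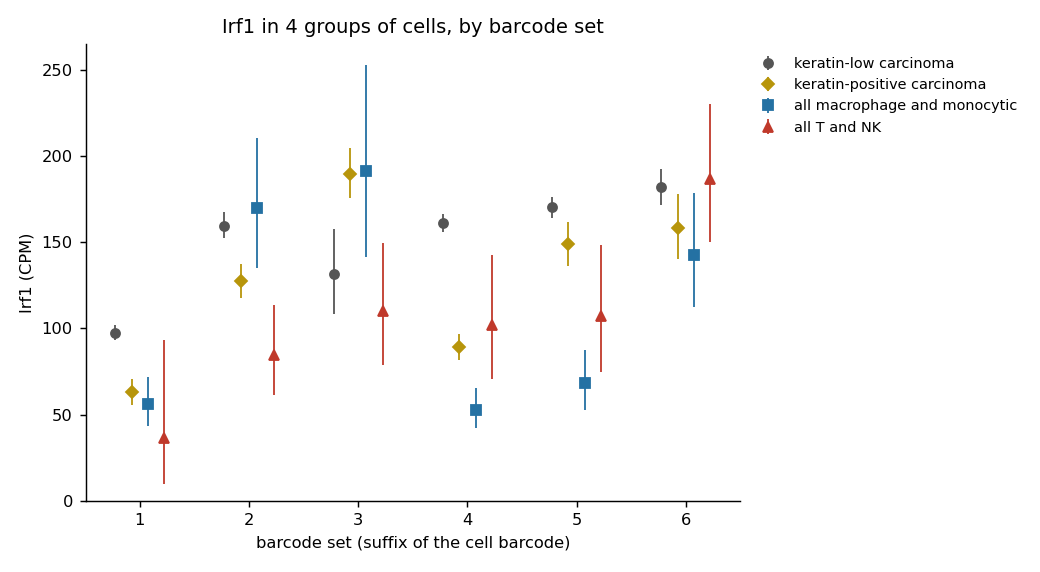
Irf1 in CPM for each barcode set in keratin-low carcinoma, keratin-positive carcinoma, macrophage and monocytic, and T and NK cells, with exact 95% Poisson bars. Set 1 lies lowest in both carcinoma groups (97.6 and 63.0 CPM) and in T and NK cells (36.5 CPM).

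Socs1 (ENSMUSG00000038037, chromosome 16, 10782240 to 10785536, minus strand), the feedback inhibitor with the overlapping IRF-type matches, ran from 11.04 to 177 CPM over the ranked lineages. Gamma-delta T cells held 177 CPM (88.6 to 318, from 11 UMIs in 4 of 27 cells) and unsplit T cells 127 CPM (91.9 to 171). CD4 conventional T cells held 116 CPM (70.9 to 179, from 20 UMIs in 13 cells), or 76.4 CPM where cells needed 1000 genes. CD8 T cells held 42.4 CPM (26.2 to 64.7), so CD4 conventional T cells were 2.74-fold above them (1.41 to 5.31). Shares after thinning, with shallower cells left out, did not show this difference. A Socs1 UMI was in 6.90% of 29 CD4 conventional T cells (0.85 to 22.8%). In CD8 T cells it was in 8.24% of 85 (3.38 to 16.2%). Thinned to 1000 UMIs, the shares were 3.92% of 51 CD4 conventional and 3.51% of 114 CD8 T cells. Fibroblasts stood at 69.2 CPM (57.0 to 83.2), 1.58-fold above keratin-low carcinoma cells (1.30 to 1.90) at 43.9 CPM (42.4 to 45.4). Osteoclast-like cells were 3.56-fold under the latter (2.30 to 5.83), at 12.3 CPM (7.54 to 19.1), and mast cells or basophils had 2 UMIs. Across sets the level in keratin-low carcinoma cells ran from 35.9 to 50.1 CPM with a median of 43.1 CPM, and in T and NK cells from 44.3 to 90.0 CPM with a median of 75.8 CPM.

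Irf8 (ENSMUSG00000041515, chromosome 8, 120736358 to 120756694, plus strand) was highest in NK cells at 1577 CPM (1482 to 1676), T and NK positive cells at 1541 CPM (1409 to 1682) and mature dendritic cells at 1187 CPM (990.2 to 1411). NK and T and NK positive cells do not differ beyond their intervals, and with an NK gate of 2 markers NK cells held 1171 CPM, under mature dendritic cells. Over 15 settings NK cells ranked highest in 9, T and NK positive cells in 5 and unsplit T cells in 1. That 1 was the cluster setting, which gave no NK class. Its unsplit T class of 521 cells came from a cluster of T and NK cells together, so it does not set T cells above NK cells. The unranked plasmacytoid and type 1 dendritic gates, with 7 and 17 cells, held 1729 CPM (1229 to 2364) and 804 CPM (613 to 1035). CD8 T cells followed at 539 CPM (476 to 607), 2.93-fold under NK cells (2.56 to 3.36). T cells did not share 1 level: CD8 T cells were 15.5-fold above CD4 conventional T cells (7.01 to 42.5), which held 34.8 CPM (12.8 to 75.8), and regulatory T cells held 81.7 CPM (32.9 to 168). C1q-positive macrophages stood at 172 CPM (159 to 187) and C1q-negative monocytic cells at 127 CPM (110 to 146). Keratin-positive carcinoma cells held 22.8 CPM (20.98 to 24.8), 1.80-fold the level of keratin-low ones (1.62 to 2.00) at 12.7 CPM. Fibroblasts had the lowest level, 4.90 CPM (2.12 to 9.65). After thinning, 86.9% of NK cells had an Irf8 UMI (79.6 to 92.3%), against 42.4% of CD8 T cells (31.7 to 53.6%), 29.3% of C1q-positive macrophages (25.9 to 32.9%) and 0.54% of fibroblasts (0.01 to 2.99%).

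By set, Irf8 in NK cells was 942, 1358, 1643, 1864, 1590 and 1848 CPM, with set 1 low, and every value lies above the 399 to 705 CPM of CD8 T cells in sets 2 to 6. Klrk1, the NK receptor NKG2D (r = 0.85), Sema4a (0.84), Tpm3 (0.84), the interferon-inducible GTPase gene Gbp8 (0.83) and the calcium channel gene Orai1 (0.83) were most like Irf8 across lineages. Closest to Irf1 were the translation factor gene Eif1 (0.86), Kdm2a (0.85), Otud1 (0.82), Crtc3 (0.79) and Iffo2 (0.78), and closest to Socs1 were Vps26b (0.83), Mycbp2 (0.82), Ppm1d (0.81), Ift80 (0.79) and Rhoq (0.79). Irf8 overlaps the annotated gene Gm20388.

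Within the lymphocytes, cells with and without an Ifng UMI were set side by side after thinning to 2000 UMIs. Of 31 NK cells with Ifng 96.8% had an Irf8 UMI (83.3 to 99.9%), against 83.5% of 91 without (74.3 to 90.5%). Irf1 was in 32.3% (16.7 to 51.4%) against 13.2% (7.0 to 21.9%). In CD8 T cells Irf8 was in 50.0% of 32 cells with Ifng (31.9 to 68.1%) and in 37.7% of 53 without (24.8 to 52.1%), and Irf1 in 8 of the 32 (11.5 to 43.4%) and 13.2% of the 53 (5.48 to 25.3%). All these intervals overlap. The order of Irf8 in CD8 T cells turned when cells were thinned to 1000 UMIs, with 19.2% of 26 cells with Ifng (6.55 to 39.4%) and 28.4% of 88 without (19.3 to 39.0%). Over all T and NK cells Irf8 was in 72.6% of 95 cells with Ifng (62.5 to 81.3%) and 56.7% of 289 without (50.8 to 62.5%), while Ifngr1 was in 61.1% (50.5 to 70.9%) and 63.0% (57.1 to 68.6%). NK cells, the subset with the highest Irf8, were 31 of the 95 cells with Ifng and 91 of the 289 without. Of 63 T and NK positive cells at this depth, whose Irf8 level was close to that of NK cells, 21 had Ifng. The 29 CD4 conventional and 15 regulatory T cells, both low in Irf8, were all without Ifng. The subsets thus differ between the cells with and without Ifng, and their part in the Irf8 shares was not tested. Cells of 1 pool are not replicates, so these shares describe the cells only.

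The genes known to respond to the cytokine were counted in the same lineages. C1q-negative monocytic cells had the most, with 16 of 26 at least 2-fold higher than in all other kept cells, against 12.1% of all genes, led by the chemokine gene Cxcl10 at 538 CPM, Cd274, which encodes PD-L1, at 297 CPM and Irf7 at 267 CPM. Regulatory T cells had 15 of 26, against 9.52%, with the GTPase genes Igtp at 374 CPM, Gbp7 at 304 CPM and Iigp1 at 292 CPM, from 25 to 32 UMIs each. Neutrophils had 13 of 26, against 8.34%, led by Gbp2 at 456 CPM, Cd274 at 424 CPM and Irf7 at 196 CPM. In C1q-positive macrophages 13 of 26 were, against 12.4% of all genes, among them Irf7 (202 CPM), Cd274 (193 CPM) and the immunoproteasome subunit gene Psmb9 (140 CPM). Endothelial cells also had 13 of 26, against 12.1% of all genes, with the GTPase gene Iigp1 at 371.5 CPM, Gbp7 at 214 CPM and the chemokine gene Cxcl9 at 189 CPM. Mature dendritic cells had 9 of 26, against 7.21%, with Psmb8 at 788 CPM, Cd274 at 705 CPM and Psmb9 at 408 CPM. NK cells had 9 of 26 and CD8 T cells 10 of 26, against the 9.97% and 11.0% of all genes given above, led by Psmb8 at 292 and 411 CPM. Both also had lower members, at counts near the shares over all genes. In NK cells 6 of 26 were at least 2-fold lower, where 19.9% of all genes were (Gbp2, Irgm1, Irgm2, Iigp1, Cxcl9 and Cxcl10). In CD8 T cells 4 were, where 16.6% were (Gbp2, Irgm1, Iigp1 and Cxcl10). Regulatory T cells had 2 lower (Cxcl10 and Psmb10), where 771 of 14472 genes were. C1q-positive macrophages (Ido1), neutrophils (Iigp1), endothelial (Psmb10) and mature dendritic cells (Iigp1) had 1 each, where 3585, 2015, 1302 and 1286 genes were. The median fold of the list was 0.87 in NK cells and 1.29 in CD8 T cells, against 0.64 and 0.67 over all genes. In keratin-low carcinoma cells 0 of 26 were 2-fold higher, a count near the 1.31% of all genes, and 9 were at least 2-fold lower, against 11.6% of all genes: Gbp4, Cxcl9, Ciita, Cd274, Icam1, Serpina3g, Batf2, Ido1 and Nos2. The median fold of the list there was 0.79, against 1.03 over all genes. Type I interferons induce many of these genes too. The Ifnb1 transcript was at least 2-fold higher in keratin-low carcinoma cells, at 2.33 CPM (2.01 to 2.70) against 0.927 CPM in all other kept cells, and was the 1 gene of 4 counted other interferons and receptors to be so.

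The summed level of the responsive list varied by set in carcinoma cells. In keratin-low ones it was 386, 812, 1269, 879, 1866 and 1442 CPM, in macrophages and monocytic cells 1421, 2612, 2772, 1856, 3085 and 2551 CPM, and in T and NK cells 1230, 1318, 1687, 1827, 1957 and 1959 CPM. Set 1 was lowest in all 3 groups of cells. It also had the lowest Ifng in T and NK cells, from 5 UMIs, and the fewest T and NK cells. Which of the 6 sets came from treated tumors is not given, and what moved these values was not tested.

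The 9 clusters named carcinoma from Xist and Y-linked genes, found without the 6 genes and the related lists, showed how the targets vary among carcinoma cells. Irf1 ran from 74.1 CPM (cluster 1, led by Nefl and Ect2) to 333 CPM (cluster 4, led by Dnm3os and Spry1). Cluster 4 also had the lowest median depth of them, 4626 UMIs, the highest median mitochondrial share, 5.57%, and the stress genes Hspa1a and Fos among its leading genes. The part of these in its Irf1 level was not tested. Cluster 0, led by Ptn and Enpp2, held 231 CPM at a median of 9115 UMIs. The responsive list followed another order: cluster 10, led by Nppc and the interferon-induced Ifit2 and with the listed gene Cxcl10 among its 10 leading genes, had the highest summed level, 2356 CPM, at 176 CPM of Irf1, while cluster 12, led by Sprr2h and Ero1l, had 1937 CPM at 96.8 CPM of Irf1. Socs1 ran from 28.2 CPM in cluster 12 to 59.4 CPM in cluster 9.

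**Figure D5:**
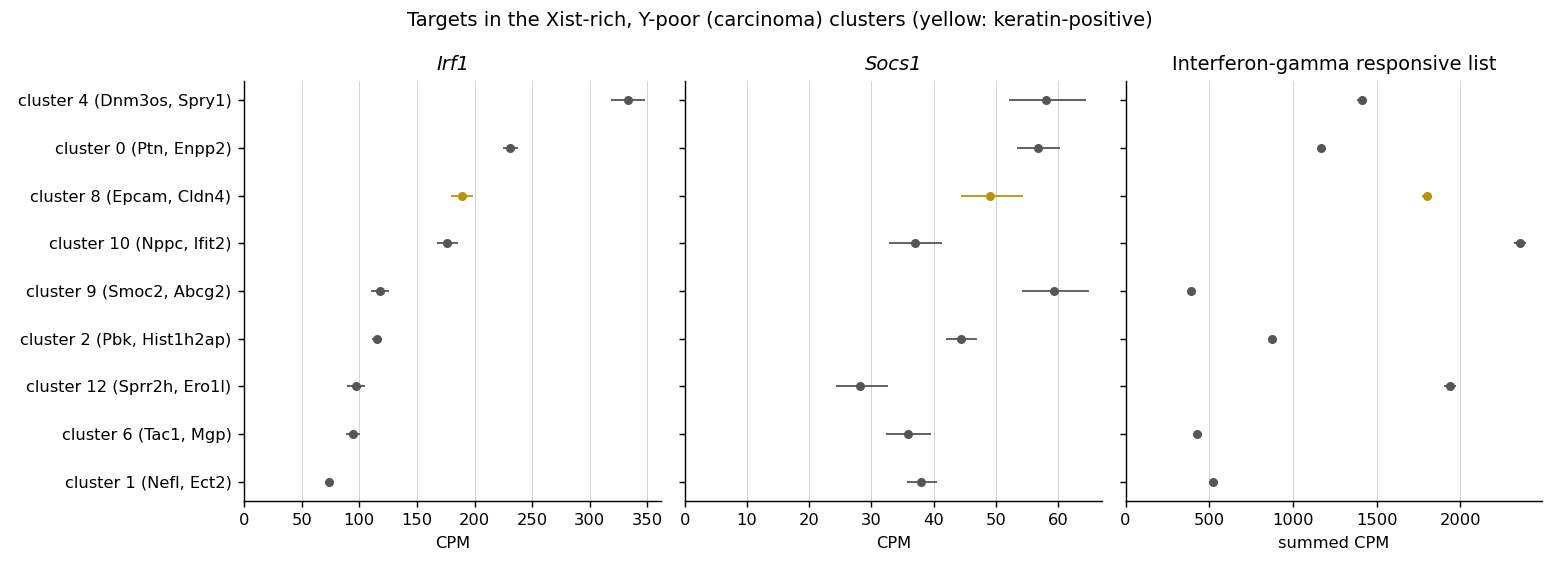
Irf1, Socs1 and the summed interferon-gamma responsive list (horizontal axes, CPM) in the 9 clusters named carcinoma, ordered by Irf1 and labelled by their first 2 leading genes, with exact 95% Poisson bars; yellow marks the keratin-positive cluster. Irf1 runs from 74.1 to 333 CPM, and the list is highest in cluster 10, which has 3 clusters above it for Irf1.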

How the data were processed

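A single matrix of raw UMI counts, 1 value per gene and cell, was deposited for all tumors together, with 12 tag features beside the genes. Cell Ranger 7.1, Seurat and mm10 are named per the submitters' processing notes, Seurat 4.1.0 in the series text, and the matrix names cellranger 7.0.0 per the file headers. No count was normalized before use.

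Kept cells had 500 or more genes and a mitochondrial share below 15%. Scrublet in scanpy 1.11.5, run per barcode set at an expected rate of 6%, marked 40 cells, 0.291%, so it has not worked and doublets may remain; these cells were left out. A cell passed a gate with at least 2 distinct markers and 5 marker UMIs per 10000. NK, macrophage or monocyte, neutrophil, osteoclast, fibroblast, plasmacytoid and mature dendritic gates needed 3 markers, and neutrophil, osteoclast and fibroblast gates 50 UMIs per 10000. Gated cells with at least 3 Xist UMIs counted as mixed. Gate cut-offs were set with the members' values in view.

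Levels are CPM of summed counts. A gene was called at 2-fold over all other kept cells, among genes with at least 50 counts, with a floor of 3 counts. The planned edgeR test of treated against vehicle tumors was not run, since no label ties cells to tumors. Named genes are the members, list genes behind counts of 5 or fewer, the 3 highest called genes per list and lineage, and the 5 genes most correlated with each member on log2(CPM + 5). The members and lists were chosen with earlier results of these data known. Clusters came from leidenalg 0.10.2 at resolution 1. Positions are from GENCODE M21. The fold step was tested on simulated counts. Of the listed genes, 1 is not reported here and was left out of the list counts.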

Additional observations from a re-analysis of the deposited data

How the results depend on the processing

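No paired analysis was possible because no label ties a cell, tag or barcode set to a tumor. Orders between lineages did turn: NK cells held a larger share of Ifng UMIs than CD8 T cells without set 5 and with an NK gate at 2 markers, and NK cells were under mature dendritic cells for Irf8 with that gate. With a minimum of 1000 genes and a mitochondrial share below 10%, Ifng in NK cells was 152 CPM, Ifngr1 in all T and NK cells 553 CPM, and the CD8 T share of gated Ifng UMIs 35.0%; Socs1 in CD4 conventional T cells, within its interval, was 76.4 CPM. With 1 more marker per gate, Ifngr1 in T and NK cells was 546 CPM, Irf1 in keratin-low carcinoma cells 142 CPM, and the NK and CD8 T shares of Ifng 31.2% and 36.9%. Clusters gave no NK or mature dendritic class, since 1 cluster held T and NK cells together, so those values have no cluster alternative. In clusters, C1q-positive macrophages had 122 CPM of Ifngr1 and 97.8 CPM of Ifngr2, keratin-low carcinoma cells 138 CPM of Irf1, and the CD8 T and all T and NK shares of Ifng were 22.5% and 87.3%. With mixed cells assigned to their densest gate, Ifng in CD8 T cells was 234 CPM, Ifngr1 129 CPM in C1q-positive macrophages and 504 CPM in T and NK cells, Ifngr2 in these macrophages 101 CPM, Irf8 in NK cells 1277 CPM, and the T and NK share 88.2%. With doublet scores under 0.25 that share was 95.7%. Chosen after seeing the data, an NK gate at 2 markers gave 528 CPM of Ifngr1 and 7.09 CPM of Ifngr2 in T and NK cells, 1171 CPM of Irf8 in NK cells, and NK and CD8 T shares of 35.3% and 24.8%. A macrophage gate at 2 markers, also added later, gave a T and NK share of 84.6% and 2.72 CPM of Ifngr2. The cause of these shifts was not tested.

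Leaving out each barcode set in turn gave 108 to 249 CPM for Ifng in NK cells (lowest without set 6) and 244 to 322 CPM in CD8 T cells. The shares of Ifng UMIs were 17.6 to 31.0% (NK), 23.6 to 35.1% (CD8 T) and 90.3 to 95.5% (all T and NK). Ifngr1 ran from 575 to 598 CPM in T and NK cells and 139 to 149 CPM in C1q-positive macrophages, and Ifngr2 from 2.97 to 5.09 CPM and 112 to 125 CPM. Irf1 ran from 322 to 363 CPM in mature dendritic and 143 to 166 CPM in keratin-low carcinoma cells, Socs1 from 104 to 150.0 CPM in CD4 conventional T cells, and Irf8 from 1506 to 1661 CPM in NK and 1083 to 1493 CPM in mature dendritic cells. Over 15 settings CD8 T cells had the highest Ifng in 9, T and NK positive cells in 5 and gamma-delta T cells in 1. The lineage with the highest level in the report stayed highest in 12 for Ifngr1, 11 for Ifngr2, 13 for Irf1, 12 for Socs1 and 9 for Irf8. Small cell numbers widen the intervals of gamma-delta T cells (27 cells) and mature dendritic cells (33 cells).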

Other observations

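Cluster 14, with 230 cells led by Rps26 and Nefl, held little of most of the 6 genes. Its cells had a median of 5666.5 UMIs, 18.5 CPM of Xist and no Y-linked UMI, and 92.6% of them were ungated. Irf1 stood there at 3.96 CPM, Socs1 at 3.3 CPM and Ifngr1 at 5.94 CPM, against 28.4 CPM of Ifngr2. In the ungated cells as a whole Irf1 stood at 122 CPM. What these cells are was not tested.

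Neutrophil cluster 19, with 38 cells, had the highest summed level of the responsive list of all 20 clusters, 4249 CPM, with 254 CPM of Irf1 and 0 UMIs of Ifng and Irf8.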
